A study of Mus musculus with 22 samples.

Results

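The 10 genes described here are those most often read as the epithelial and mesenchymal ends of a cell state: the adhesion genes Cdh1, Cdh2 and Epcam, the filament and matrix genes Vim and Fn1, and the transcription factors Snai1, Snai2, Zeb1, Zeb2 and Twist1. They were taken by symbol and are 10 of 52535 gene symbols in the count tables. All 10 passed the filter on low counts, which kept 16765 genes. The data are RNA-seq read counts from mouse embryonic stem cells of the line E14, a blastocyst-derived line that can be kept undifferentiated in culture. All 12 libraries came from cells that had been grown on gelatin with serum, LIF and inhibitors of MEK and GSK, and were then moved to medium without LIF and the inhibitors and with 2 µM retinoic acid for 1 day. There were 3 libraries each of wild-type cells (WT) and of cells with the genotype E1-KO, E2-KO or D-KO. The title of the series speaks of a pair of enhancers of the HoxB genes. The labels do not spell out the genotype codes, so E1-KO and E2-KO are read here as loss of one or the other enhancer and D-KO as loss of both. All 4 genotypes received retinoic acid, so every comparison is between genotypes under treatment, and none is between treated and untreated cells.

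In an epithelial-mesenchymal transition, cells held together by E-cadherin junctions lose those contacts, take up N-cadherin and vimentin, and migrate. The Snail, Zeb and Twist transcription factors drive the change, in large part by repressing the E-cadherin gene. Embryonic stem cells grow as tight E-cadherin-bound colonies, and the embryo uses the same programme when epiblast cells leave the epithelium at gastrulation and when neural crest cells leave the neural tube. Retinoic acid pushes stem cells out of self-renewal and towards neural and endodermal fates, and it is also the signal that opens the HoxB cluster.

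The libraries held between 9101547 and 13007735 gene counts each. As a check of the labels, 9 of 10 HoxB genes were lower in each knockout than in WT, each at an adjusted p below 0.05. Stem cell markers were plentiful in all genotypes, with 10 of 10 above 1 CPM (a gene's reads scaled to a fixed library total, after TMM normalisation). Their summed level was 2684 to 7096 CPM. Of 10 fibroblast markers, 3 lay above 1 CPM in each genotype, among them Pdgfrb with means of 14.0 to 25.9 CPM. The fibroblast markers Lum and Fap were at 0 in every library. The 3 WT libraries stood apart from each other: the median SD of log2 CPM over genes was 0.369 in WT and 0.116 to 0.127 in the knockouts. Their trend with GC content also differed. For each library, the deviation of log2 CPM from the gene's mean over all 12 libraries was correlated with GC content. The Spearman coefficients across 16271 genes were -0.56, 0.14 and -0.43 in WT replicates 1, 2 and 3. Deviations of a gene cancel over the libraries, so these coefficients depend on each other and are not a library's own relation of level to GC. Coefficients ranged from 0.25 to 0.43 in E1-KO and E2-KO and from -0.10 to -0.02 in D-KO. Results that rest on single WT libraries are therefore given with and without them. The series calls the libraries biological replicates, but nothing states that they came from separate cultures or clones, so p-values measure only the spread between these libraries. These are bulk samples, in which fewer cells of a type and less RNA per cell cannot be told apart.

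Per kilobase of exon, Fn1 and the epithelial gene Cdh1 led in all 4 genotypes, and the transcription factors lay far below both. In WT, Fn1 led at 116.7 ± 26.3 CPM per kilobase (SD, n = 3), followed by Cdh1 at 83.0 ± 5.29, Vim at 45.5 ± 17.3 and Epcam at 24.8 ± 3.79. Of the transcription factors, Zeb1 lay at 3.86 ± 1.16, Snai1 at 3.84 ± 2.25 and Twist1 at 2.75 ± 0.656 CPM per kilobase. Cdh2 followed at 1.31 ± 0.405, then Snai2 at 0.804 ± 0.666 and Zeb2 at 0.150 ± 0.0543. The WT libraries of Zeb1 and Snai1, of Snai1 and Twist1, and of Cdh2 and Snai2 overlapped, so those neighbours could not be ordered, while the other neighbours were apart. The order differed between genotypes in a few places. Snai1 lay above Zeb1 in every knockout library, Snai2 lay above Cdh2 in E1-KO with no overlap, and in E2-KO the libraries of Fn1 and Cdh1 overlapped. The order depends on the length used, here all exons of a gene merged over its transcripts, 8066 bases for Cdh2 and 2021 for Snai2. Before division by length, Cdh2 had the higher E1-KO mean, 2.50 CPM against 1.61 for Snai2.

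Against WT, Cdh2, Zeb2 and Twist1 fell and Snai1 rose in all 3 knockouts, while Cdh1 was not called in any of them. A gene is called here when its adjusted p from edgeR's quasi-likelihood test over all tested genes lies below 0.05. In E1-KO 6 of the 10 genes were called, 1 higher and 5 lower, where 34.2% of all tested genes were called. In E2-KO 5 were called, 1 higher and 4 lower, against 35.3% of all genes. In D-KO 4 were called, 1 higher and 3 lower, against 22.8%. The median log2 fold change over the 10 genes was -0.43 in E1-KO cells, -0.35 in E2-KO cells and -0.07 in D-KO cells, beside -0.01, 0.00 and -0.02 over all tested genes. These 3 comparisons share the WT libraries, so their counts are not independent of each other. Cdh2, Snai1, Zeb2 and Twist1 were called in all 3, and Cdh1, Snai2, Zeb1 and Fn1 in none. The libraries of knockout and WT did not overlap for 6 genes in E1-KO cells, 7 in E2-KO cells and 5 in D-KO cells, where 41.1%, 41% and 32.8% of all tested genes did not overlap.

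**Figure D1:**
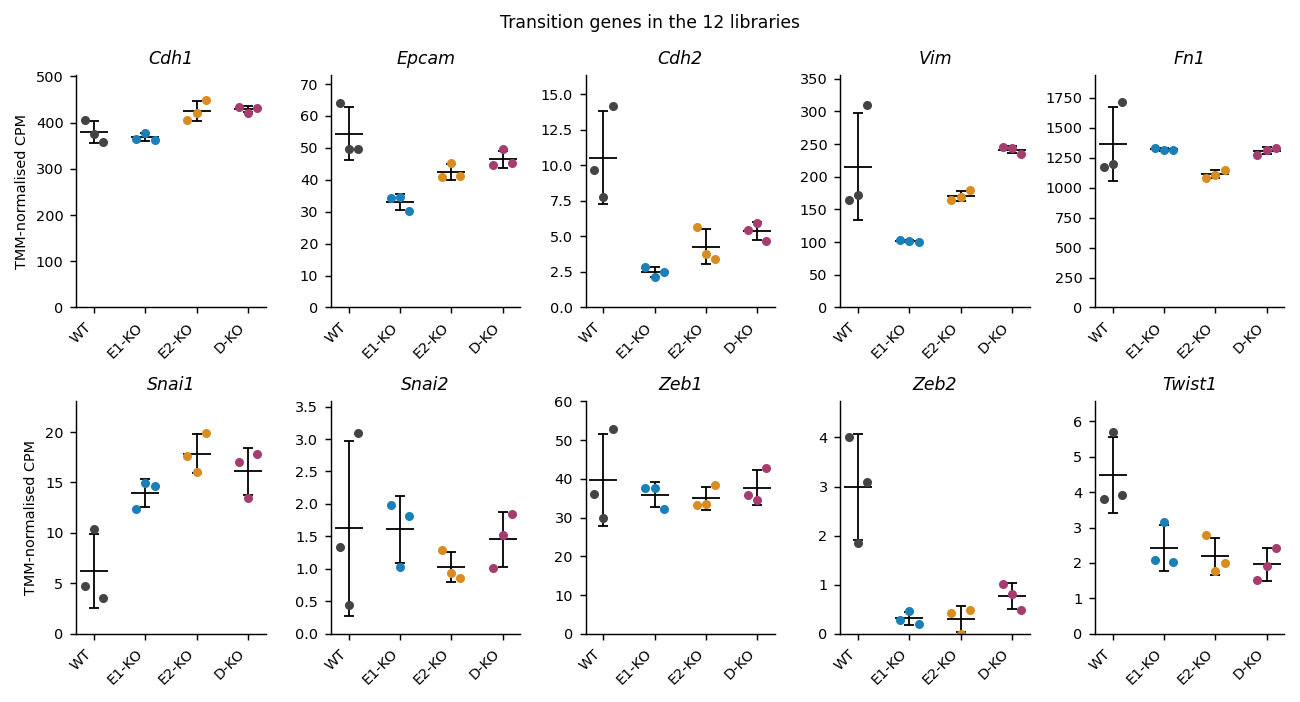
TMM-normalised CPM (vertical axes, linear from 0, one scale per gene) of the 10 genes by genotype. Points are libraries, the horizontal bar is the mean and the error bar the SD of 3. Cdh1 keeps a mean between 368 and 429 CPM in all genotypes, Zeb2 falls from a WT mean of 2.99 CPM to below 1 CPM, and for Vim and Fn1 the spread of WT exceeds that of every knockout.

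**Figure D2:**
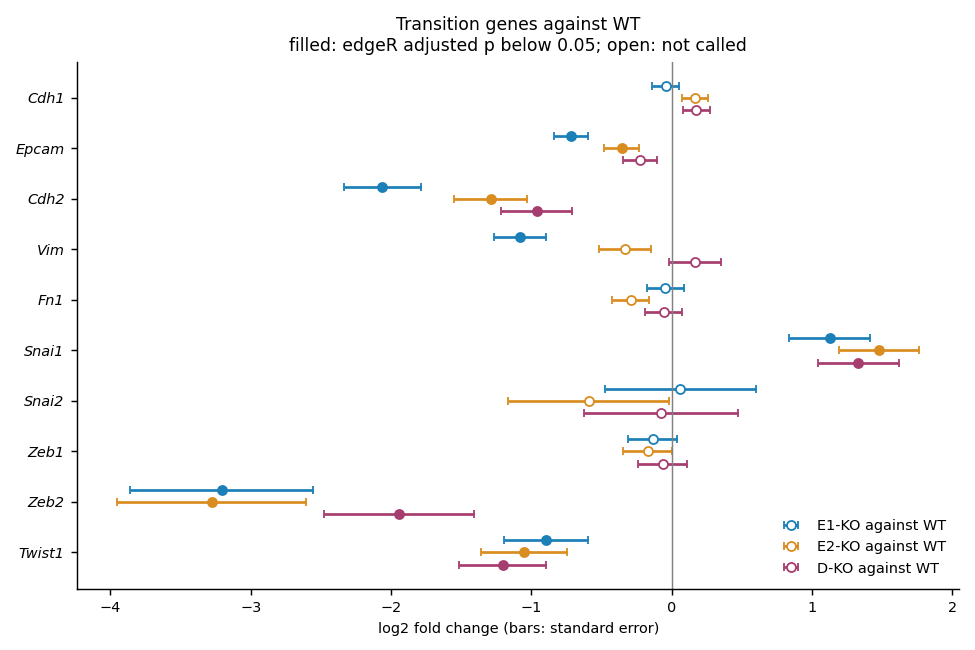
Log2 fold change against WT (horizontal axis, bars are standard errors) of the 10 genes in the 3 knockouts. Filled points are called by edgeR and open points are not. Snai1 lies to the right of 0 in all 3 genotypes, Cdh2, Zeb2 and Twist1 lie to the left in all 3, and Vim is called in E1-KO alone.

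Cdh1 encodes E-cadherin, the calcium-dependent adhesion protein of epithelial junctions and of stem cell colonies (chr8:106603351-106670246, plus strand; all coordinates are GRCm38, from the GENCODE M21 annotation). Its level was 405.6, 375.5 and 357.8 CPM in WT, 364.4, 377.7 and 361.9 CPM in E1-KO cells, 406, 420.5 and 449 CPM in E2-KO cells, and 432.9, 421.3 and 431.9 CPM in D-KO cells. All E2-KO and D-KO libraries lay above all WT libraries, if only just for E2-KO, and E1-KO overlapped WT. The log2 fold change was -0.04 ± 0.09 (SE) in E1-KO (adjusted p = 0.736), 0.16 ± 0.09 in E2-KO (adjusted p = 0.186) and 0.18 ± 0.09 in D-KO (adjusted p = 0.194). The 95% intervals ran from -0.24 to 0.16, from -0.04 to 0.36 and from -0.02 to 0.38, so none of them reached a change of 1 log2 unit in either direction. Cdh1 was called higher in E2-KO (0.18, adjusted p = 0.00655) and D-KO (0.19, adjusted p = 0.00352) with WT replicate 2 as the only WT library.

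Cdh2 encodes N-cadherin, which replaces E-cadherin in mesenchymal, neural and mesodermal cells (chr18:16588877-16809246, minus strand). It fell in every knockout. WT held 9.67, 7.79 and 14.1 CPM, E1-KO 2.85, 2.14 and 2.52 CPM, E2-KO 5.68, 3.76 and 3.42 CPM, and D-KO 5.45, 5.97 and 4.68 CPM. No knockout library reached the lowest WT library, and the E1-KO libraries were the lowest of all 12. The fall was 4.18-fold in E1-KO (log2 fold change -2.06 ± 0.27, adjusted p = 7.63e-05), 2.45-fold in E2-KO (-1.29 ± 0.26, adjusted p = 0.00198) and 1.95-fold in D-KO (-0.96 ± 0.25, adjusted p = 0.0145). These rest on few reads, 318 in the 3 WT libraries together, 78 in E1-KO cells, 125 in E2-KO cells and 161 in D-KO cells. The D-KO call was lost without D-KO replicate 1 (adjusted p = 0.0501) or D-KO replicate 3 (adjusted p = 0.068). With WT replicate 2 as the only WT library, Cdh2 in D-KO stood at -0.54 (adjusted p = 0.13), while both single knockouts stayed called.

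The balance of the 2 cadherins therefore lay further towards E-cadherin in the knockouts. WT libraries held 41.9, 48.2 and 25.3 Cdh1 reads for each Cdh2 read, E1-KO libraries 128.1, 176.6 and 143.6, E2-KO libraries 71.5, 112.0 and 131.5, and D-KO libraries 79.4, 70.6 and 92.4. All 9 knockout libraries lay above all WT libraries, E1-KO overlapped E2-KO, and D-KO overlapped E2-KO but not E1-KO. The means were 38.5 ± 11.8 (SD, n = 3) in WT, 149.4 ± 24.8 in E1-KO cells, 105 ± 30.6 in E2-KO cells and 80.8 ± 10.96 in D-KO cells. The ratio is a description of the pair and was not tested.

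**Figure D3:**
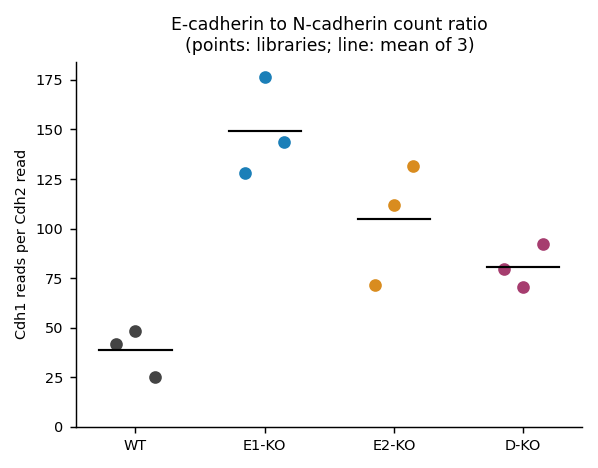
Cdh1 reads per Cdh2 read (vertical axis, linear from 0) in each of the 12 libraries. Points are libraries and horizontal lines the mean of 3. The WT libraries lie between 25.3 and 48.2 and every knockout library lies at 70.6 or above.

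Epcam encodes an epithelial adhesion protein that is also a marker of undifferentiated stem cells (chr17:87635979-87651129, plus strand). WT libraries held 64.0, 49.5 and 49.7 CPM, E1-KO 34.3, 34.5 and 30.3 CPM, E2-KO 40.9, 45.4 and 41.1 CPM, and D-KO 44.5, 49.6 and 45.2 CPM. E1-KO and E2-KO lay below every WT library, while 1 D-KO library overlapped WT. Epcam fell in E1-KO, by 0.72 ± 0.12 on the log2 scale (adjusted p = 0.000602), and in E2-KO, by 0.36 ± 0.12 (adjusted p = 0.0347). Its value in D-KO was -0.23 ± 0.12 (adjusted p = 0.194). The E2-KO call was lost in 12 of 22 alternative analyses, among them those without WT replicate 1 (-0.23, adjusted p = 0.111) and without any 1 of the 3 E2-KO libraries (adjusted p = 0.0575 to 0.115). Leaving out E1-KO replicate 1 or 2, or D-KO replicate 1 or 3, which moves only the shared spread, gave adjusted p between 0.0507 and 0.0521 for Epcam. With GC and length trends removed the Epcam values were -0.58 in E2-KO (adjusted p = 0.00252) and -0.37 in D-KO, which was then called (adjusted p = 0.0361). In the 12-library fit the epithelial gene Epcam and the mesenchymal gene Cdh2 both fell in E1-KO, and Cdh1 was not called.

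The Snail and Zeb proteins bind the E-box CACCTG, or its reverse complement CAGGTG on the other strand, and both letter strings were searched in the 300-base start-site windows (250 bases before the start to 50 after) that RefSeq gives for GRCm38.p6. The windows of Epcam and Snai1 are shown because they are the members with such a match and because the 2 genes were called in opposite directions in E1-KO and E2-KO. RefSeq windows were matched for 5 of the 10 genes, namely Epcam, Vim, Snai1, Zeb2 with 4 start sites, and Twist1. The lines give the 250 bases upstream of the start, 5′ to 3′ on the plus strand, with the E-box in capitals. The Epcam window (chr17:87635729-87635978) has matches that begin at -187 and -19 from the start site, and the Snai1 window (chr2:167537945-167538194) has 1 at -126.
Epcam: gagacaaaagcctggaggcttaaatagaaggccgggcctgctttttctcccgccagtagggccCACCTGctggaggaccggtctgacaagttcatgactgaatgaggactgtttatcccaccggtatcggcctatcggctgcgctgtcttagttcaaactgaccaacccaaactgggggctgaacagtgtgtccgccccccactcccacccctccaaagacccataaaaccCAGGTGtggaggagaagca
Snai1: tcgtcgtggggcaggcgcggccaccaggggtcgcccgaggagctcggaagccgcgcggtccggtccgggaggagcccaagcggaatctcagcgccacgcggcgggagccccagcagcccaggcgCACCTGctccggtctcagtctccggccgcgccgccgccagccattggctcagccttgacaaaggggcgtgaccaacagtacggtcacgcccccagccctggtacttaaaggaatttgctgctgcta
The windows of Vim, Zeb2 and Twist1 hold 0 matches. Of all 32851 RefSeq windows, 6640 (20.2%) hold at least 1 match and 946 (2.88%) hold 2 or more. A match describes these letters and shows no binding.

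Vim encodes vimentin, the intermediate filament protein of mesenchymal cells, which cultured stem cells also make (chr2:13573927-13582826, plus strand). E1-KO libraries held 103.6, 101.5 and 100 CPM, E2-KO 164.8, 168.4 and 179.8 CPM, and D-KO 246.3, 243.4 and 235.1 CPM, so the 3 knockouts formed 3 separate groups. WT libraries held 165, 171.9 and 310.4 CPM, with replicate 3 far above the other two. Against WT, Vim fell in E1-KO, by 1.08 ± 0.18 (2.12-fold, adjusted p = 0.00061). It was not called in E2-KO (-0.33 ± 0.18, adjusted p = 0.169) or D-KO (0.16 ± 0.18, adjusted p = 0.553). WT replicate 3 decided the D-KO value: without it Vim was 0.51 higher in D-KO than in WT on the log2 scale (adjusted p = 0.000168), and the E1-KO value was -0.72 (adjusted p = 4.38e-06). With WT replicate 2 as the only WT library, the D-KO value was 0.49 (adjusted p = 3.05e-09).

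Fn1 encodes fibronectin, a matrix protein that mesenchymal cells and the embryonic endoderm deposit and that carries the integrin contacts of migrating cells (chr1:71585520-71653200, minus strand). WT libraries held 1172, 1200 and 1718 CPM, E1-KO 1333, 1319 and 1312 CPM, E2-KO 1083, 1105 and 1151 CPM, and D-KO 1274, 1317 and 1335 CPM. The highest library was again WT replicate 3, the E2-KO libraries lay below every other library, and E1-KO and D-KO overlapped WT. Fn1 was not called: the log2 fold change was -0.05 ± 0.13 in E1-KO (adjusted p = 0.814), -0.29 ± 0.13 in E2-KO (adjusted p = 0.0976) and -0.06 ± 0.13 in D-KO (adjusted p = 0.785). Leaving out WT replicate 1 or WT replicate 2 brought the E2-KO value to -0.39 (adjusted p = 0.0301) or -0.37 (adjusted p = 0.0139). Over all 22 alternatives the E2-KO value ran from -0.39 to -0.1, and Fn1 was called lower in 4 of them. The fit without WT replicate 3 was not among those 4. With GC and length trends removed, Fn1 was called in E2-KO at -0.26 (adjusted p = 0.0268) and its interaction of the 2 deletions at 0.41 (adjusted p = 0.0156). Of the Fn1 exons, 292 bases (2.5%) overlap the antisense gene Apol7d. Because no source used here gives the strand setting of the counting, reads of antisense partners cannot be told apart, here and for the Zeb genes.

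Among the transcription factors, Snai1 was the one that rose. It encodes Snail, a zinc finger repressor of Cdh1 that mesoderm needs at gastrulation (chr2:167538195-167542814, plus strand). WT libraries held 4.73, 10.4 and 3.57 CPM, E1-KO 12.4, 15.0 and 14.6 CPM, E2-KO 17.6, 16.1 and 19.9 CPM, and D-KO 17.1, 13.5 and 17.8 CPM. Every knockout library lay above every WT library, and the highest WT library was replicate 2. Snai1 rose 2.18-fold in E1-KO (log2 fold change 1.13 ± 0.29, adjusted p = 0.00823), 2.78-fold in E2-KO (1.48 ± 0.29, adjusted p = 0.00153) and 2.51-fold in D-KO (1.33 ± 0.29, adjusted p = 0.0044). The size turned on which WT library was used. Without WT replicate 2 the Snai1 values were 1.75, 2.1 and 1.95, and with WT replicate 2 alone they were 0.44 (adjusted p = 0.067), 0.79 (adjusted p = 0.000637) and 0.64 (adjusted p = 0.0056). The Snai1 transcript has a GC content of 59.8%, above the upper quartile of 54.6% over tested genes. With GC and length trends removed per library the values were 0.70 (adjusted p = 0.0141), 0.98 (adjusted p = 0.00151) and 1.04 (adjusted p = 0.00128). With only the 2 genotypes in the fit, the Snai1 call was lost in E1-KO (1.15, adjusted p = 0.0605) and D-KO (1.35, adjusted p = 0.0519).

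Snai2 encodes Slug, the related repressor of neural crest and mesoderm (chr16:14705852-14709385, plus strand). It was near the limit of detection, with 1.34, 0.445 and 3.09 CPM in WT, 1.99, 1.02 and 1.82 in E1-KO cells, 1.29, 0.939 and 0.854 in E2-KO cells, and 1.01, 1.52 and 1.85 in D-KO cells. The WT libraries spanned the values of all other genotypes. Its log2 fold changes of 0.06 ± 0.54, -0.59 ± 0.57 and -0.08 ± 0.55 had adjusted p of 0.944, 0.445 and 0.939, and the 95% intervals ran from -1.09 to 1.21 in E1-KO cells, from -1.82 to 0.64 in E2-KO cells and from -1.25 to 1.09 in D-KO cells. With WT replicate 2, the lowest WT library for Snai2, as the only WT library, the E1-KO value was 1.86 (adjusted p = 0.0398).

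Zeb2 encodes a zinc finger homeobox repressor of Cdh1 that acts in neural crest and neural induction (chr2:44983632-45117395, minus strand). In the 12-library fit it fell further than any other member. WT libraries held 39, 25 and 26 reads, or 4.01, 1.85 and 3.09 CPM. E1-KO libraries held 3, 5 and 2 reads, E2-KO libraries 4, 0 and 5, and D-KO libraries 10, 8 and 5. The means were 2.99 ± 1.08 CPM (SD, n = 3) in WT, 0.317 ± 0.135 in E1-KO cells, 0.301 ± 0.262 in E2-KO cells and 0.769 ± 0.264 in D-KO cells. No knockout library reached a WT library, and for the E2-KO library without a read a count of 0 allows up to 0.313 CPM (3 counts). The fall was 9.24-fold in E1-KO (log2 fold change -3.21 ± 0.65, adjusted p = 0.00116), 9.70-fold in E2-KO (-3.28 ± 0.67, adjusted p = 0.00118) and 3.85-fold in D-KO (-1.95 ± 0.53, adjusted p = 0.0162). The 95% intervals of the log2 values are wide, from -4.61 to -1.81, from -4.72 to -1.83 and from -3.09 to -0.80. The D-KO call was lost without WT replicate 1 (adjusted p = 0.0564), D-KO replicate 2 (adjusted p = 0.0572) or D-KO replicate 3 (adjusted p = 0.0804), and with WT replicate 2 alone (-1.27, adjusted p = 0.153). The Zeb2 transcript has a GC content of 40.6%, below the lower quartile of 45.1% over tested genes. With GC and length trends removed the Zeb2 values were -2.61 (adjusted p = 0.00293), -2.48 (adjusted p = 0.0053) and -1.45 (adjusted p = 0.0427), and the D-KO value then lay closer to 0 than that of Twist1, -1.55. The D-KO call was lost when the replicate block was added to that fit (adjusted p = 0.0531). Zeb2 overlaps its antisense gene Zeb2os over 653 bases (3.27%).

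Zeb1 encodes the paralogous repressor (chr18:5591860-5775467, plus strand) and was not called in any knockout. Its libraries held 36.1, 30.0 and 52.9 CPM in WT, 37.7, 37.8 and 32.2 in E1-KO cells, 33.1, 33.5 and 38.4 in E2-KO cells, and 35.7, 34.5 and 42.9 in D-KO cells. Every knockout overlapped WT, whose replicate 3 was again the highest. The log2 fold changes were -0.14 ± 0.18, -0.17 ± 0.18 and -0.07 ± 0.18, with adjusted p of 0.571, 0.47 and 0.821. The difference between Zeb1 and Zeb2 in their response was not tested.

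Twist1 encodes a basic helix-loop-helix factor of mesoderm and cranial neural crest (chr12:33957671-33959829, plus strand). WT libraries held 3.81, 5.71 and 3.92 CPM, E1-KO 2.09, 3.16 and 2.02 CPM, E2-KO 2.79, 1.77 and 1.99 CPM, and D-KO 1.51, 1.92 and 2.44 CPM. All knockout libraries lay below all WT libraries. Twist1 fell by 0.90 ± 0.30 in E1-KO (adjusted p = 0.0316), by 1.05 ± 0.30 in E2-KO (adjusted p = 0.0161) and by 1.21 ± 0.31 in D-KO (adjusted p = 0.0117) on the log2 scale. With GC and length trends removed the Twist1 values were larger, -1.37 (adjusted p = 0.00181), -1.6 (adjusted p = 0.000702) and -1.55 (adjusted p = 0.00113), and its interaction of the 2 deletions was called at 1.41 (adjusted p = 0.0182). All 3 calls were lost with limma voom (adjusted p = 0.15, 0.0962 and 0.0771) and with only the 2 genotypes in the fit (adjusted p = 0.0949, 0.0581 and 0.0563). The E1-KO call of Twist1 was lost without WT replicate 2 (adjusted p = 0.0983), E1-KO replicate 1 (adjusted p = 0.116) or E1-KO replicate 3 (adjusted p = 0.118), that of E2-KO without E2-KO replicate 2 (adjusted p = 0.0723) or E2-KO replicate 3 (adjusted p = 0.0594), and that of D-KO without D-KO replicate 1 (adjusted p = 0.0615).

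The knockouts were next compared with each other, which leaves the WT level out of the contrast. D-KO had more Vim, Cdh2 and Epcam than E1-KO. Vim was 2.38-fold higher (log2 difference 1.25 ± 0.18, adjusted p = 0.000746), Cdh2 2.14-fold (1.10 ± 0.28, adjusted p = 0.0182) and Epcam 1.41-fold (0.49 ± 0.12, adjusted p = 0.0164). These 3 genes were called of 10, all higher in D-KO, where 15.9% of all tested genes were called and 8.43% were called higher. The libraries did not overlap for 5 of the 10 genes, against 54.4% of all tested genes. Cdh1 in D-KO against E1-KO stood at 0.22 ± 0.09 (adjusted p = 0.121) and was called with only these 2 genotypes in the fit (adjusted p = 8.83e-08), or without WT replicate 2 (adjusted p = 0.0283) or WT replicate 3 (adjusted p = 0.0268). The Cdh2 call was lost without E1-KO replicate 2 (adjusted p = 0.0783), E1-KO replicate 3 (0.0615), D-KO replicate 1 (0.0551) or D-KO replicate 2 (0.0749). The Epcam call was lost without E1-KO replicate 1 (adjusted p = 0.0515), E1-KO replicate 3 (0.0822), D-KO replicate 2 (0.0872) or D-KO replicate 3 (0.0506). Vim stayed called in all 22 alternatives.

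Between D-KO and E2-KO, edgeR called 0 of the 10 genes, where 4.48% of all tested genes were called. At an unadjusted p below 0.05 there was 1 gene, Vim, with a log2 difference of 0.50 ± 0.18 (adjusted p = 0.137). DESeq2 called 0 of the 10, and 1166 of all 16765 tested genes. Limma voom with sample weights called 3 of the 10, and 5877 of all tested genes. The libraries of the 2 genotypes did not overlap for 3 members, against 45.8% of all tested genes. Between E1-KO and E2-KO, edgeR also called 0 of the 10, where 0.596% of all tested genes were called. At an unadjusted p below 0.05 there were 4, Cdh1 (-0.21 ± 0.09), Cdh2 (-0.77 ± 0.29), Epcam (-0.36 ± 0.12) and Vim (-0.75 ± 0.18), and each was lower in E1-KO. DESeq2 called 1 of the 10, with 249 of all tested genes, and limma voom with sample weights 5, with 2954 of all tested genes. The libraries did not overlap for 6 members, against 34.7% of all tested genes.

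Whether these differences between knockouts were called depended on the spread taken from WT, since the 12-library fit shares 1 estimate of spread and WT is the most variable genotype. With only the 2 genotypes in the fit, 6 members were called between E1-KO and E2-KO. Cdh1 (-0.19, adjusted p = 0.000325), Cdh2 (-0.75, adjusted p = 0.0393), Epcam (-0.34, adjusted p = 0.00145), Vim (-0.73, adjusted p = 1.21e-16) and Snai1 (-0.34, adjusted p = 0.0474) were lower in E1-KO, and Fn1 (0.26, adjusted p = 3.48e-08) was higher. In the same kind of fit, Vim (0.50, adjusted p = 2.49e-10) and Fn1 (0.23, adjusted p = 2.38e-06) were higher in D-KO than in E2-KO. Such fits called many more genes in all, 3377 against 100 between E1-KO and E2-KO and 5872 against 751 between D-KO and E2-KO. Leaving out WT replicate 3 alone was enough for Vim and Fn1 to be called in both pairs, with adjusted p of 3.46e-05 and 0.0198 between E1-KO and E2-KO and of 0.000284 and 0.0153 between D-KO and E2-KO.

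**Figure D4:**
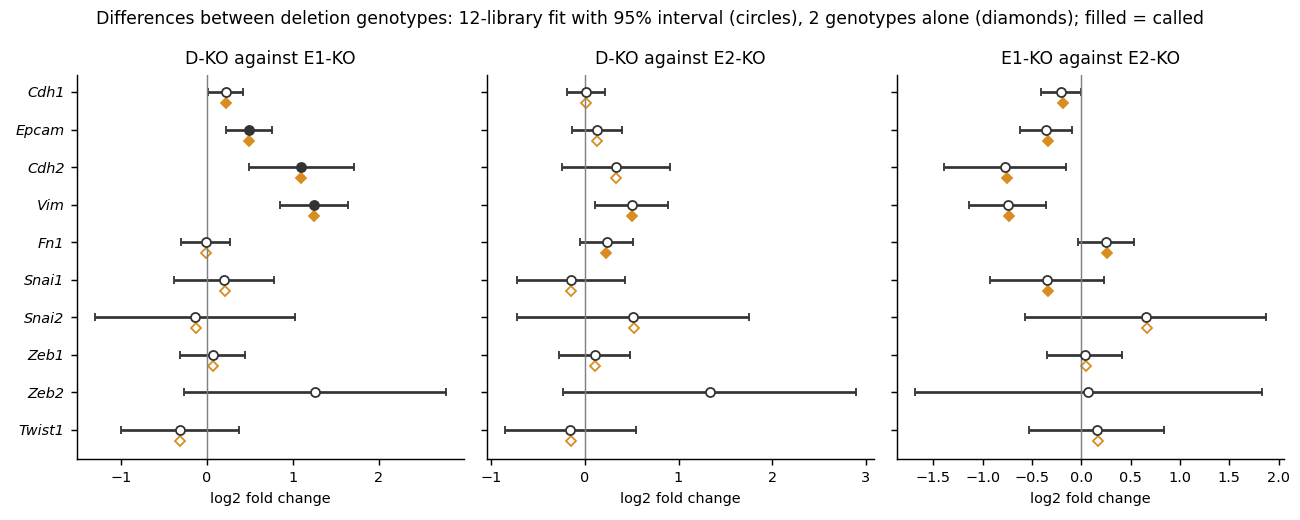
Log2 fold change between pairs of knockout genotypes (horizontal axes) for the 10 genes. Circles are the 12-library fit with its 95% interval and diamonds the fit to the 2 genotypes alone; filled symbols are called, and Zeb2 has no diamond because it did not pass the low-count filter of those fits. In D-KO against E1-KO, Vim, Cdh2 and Epcam are filled in both fits, while in the other 2 pairs the circles are all open.

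The design also shows whether a deletion had the same effect in the presence and absence of the other. On the log2 scale this is the D-KO change against WT minus the sum of the E1-KO and E2-KO changes. It was called for 5 of the 10 genes, where 35.2% of all tested genes were called, and it lay above 0 for 4 genes and below 0 for 1, against 18.1% and 17.1% of all genes. For Cdh2 the sum of the single changes was -3.35 and the D-KO change -0.96, an interaction of 2.39 ± 0.38 (adjusted p = 0.000425). For Vim the sum was -1.42 and the D-KO change 0.16, an interaction of 1.58 ± 0.26 (adjusted p = 0.000516). For Epcam the sum was -1.08 and the D-KO change -0.23, an interaction of 0.85 ± 0.17 (adjusted p = 0.0022). The D-KO mean of Epcam and of Cdh2 lay between those of WT and of both single knockouts, and the D-KO mean of Vim, 242 CPM, lay above the WT mean of 216 CPM.

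For Zeb2 the interaction was 4.54 ± 0.98 (adjusted p = 0.00225). There the sum of the single changes, -6.48, would put D-KO at 0.0333 CPM, less than the 0.0974 to 0.101 CPM that 1 read is worth in these libraries, so the sum itself could not have been observed. For Snai1 the interaction was -1.28 ± 0.39 (adjusted p = 0.0224): all 3 knockouts reached a like level of 14.0 to 17.9 CPM, below the 37.9 CPM that the sum of the single changes would give. This call was lost with GC and length trends removed (-0.65, adjusted p = 0.077) and without WT replicate 1, E1-KO replicate 2, E2-KO replicate 3 or D-KO replicate 2 (adjusted p = 0.0503 to 0.0552). Cdh2, Epcam, Vim and Zeb2 kept their interaction in all 21 alternatives. For Zeb2 the alternatives share the same few reads and the same limit on the sum. The WT libraries enter this contrast as well as the 3 comparisons with WT, so it is no independent evidence of them.

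Other genes of the 2 states, from lists compiled by function, moved in both directions. Of the 34 tested epithelial adhesion and junction genes, 13 rose and 5 fell in E1-KO cells, 13 rose and 5 fell in E2-KO cells, and 6 rose and 4 fell in D-KO cells. The corresponding shares of all tested genes were 15.7% higher and 18.5% lower in E1-KO cells, 16.7% and 18.6% in E2-KO cells, and 10.6% and 12.2% in D-KO cells. The same shares stand beside the counts of every further list below. Values in parentheses after a gene are its log2 fold changes against WT, first of E1-KO, then of E2-KO and last of D-KO. The 22 genes picked by rule from the lists had to be called in 1 direction in all 3 comparisons. Their SE was 0.094 to 0.66, and each edgeR adjusted p was 0.0358 or lower. That these lie below 0.05 follows from the selection and is no separate support. The list medians were 0.28, 0.31 and 0.00 on the log2 scale. With GC and length trends removed, 10 genes of the list rose and 6 fell in E1-KO cells. The counts were then 11 and 7 in E2-KO cells, and 6 and 7 in D-KO cells. All genes called in that fit numbered 5260, 5094 and 4370. Without WT replicate 2, 9 genes of the list rose in D-KO, where 7006 genes were called in all. Cdh3, the P-cadherin gene, rose from 8.36 ± 2.30 CPM in WT to 35.1 ± 1.27 in E1-KO cells, 35.9 ± 3.04 in E2-KO cells and 38.5 ± 4.03 in D-KO cells (log2 fold changes 2.06, 2.09 and 2.19). Dsp, the desmoplakin gene, fell (-2.05, -2.26 and -1.70), and Dsc2, a desmosomal cadherin (-1.89, -1.65 and -1.52). Ocln, the tight junction gene of occludin, fell (-1.66, -1.86 and -2.28). Among the 12 tested epithelial transcription and splicing regulators, 3 rose and 3 fell in E1-KO cells, 3 rose and 1 fell in E2-KO cells, and 3 rose and 2 fell in D-KO cells. Klf4, a factor of epithelia that also maintains stem cells, rose (1.24, 1.2 and 0.80), and Tfap2c, a factor of trophectoderm and germ cells (1.59, 1.14 and 0.59). Grhl1, a grainyhead factor, fell (-0.54, -0.76 and -0.88). The Tfap2c call in D-KO was lost without D-KO replicate 1 or 3, with limma voom and with only the 2 genotypes in the fit, and the Grhl1 call in E1-KO in 9 of 22 alternatives, among them those without any 1 of the E1-KO libraries.

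The mesenchymal adhesion, cytoskeleton and matrix list had 25 tested genes, of which 7 rose and 6 fell in E1-KO cells, 6 rose and 4 fell in E2-KO cells, and 4 rose and 6 fell in D-KO cells, with medians of 0.10, -0.06 and -0.25. Cdh4, the gene of R-cadherin, a close relative of N-cadherin, rose in every knockout while Cdh2 fell, from 8.44 ± 2.03 CPM in WT to 65.1 ± 7.64 in E1-KO cells, 58.6 ± 1.68 in E2-KO cells and 40.9 ± 1.65 in D-KO cells (log2 fold changes 2.95, 2.80 and 2.28). Pdgfra, a growth factor receptor of mesenchyme and primitive endoderm, fell (-2.69, -1.30 and -0.97), and Fbn1, the fibrillin gene (-2.22, -2.75 and -2.14). With GC and length trends removed, 4 genes of this list rose and 8 fell in E1-KO cells, 3 rose and 7 fell in E2-KO cells, and 4 rose and 9 fell in D-KO cells. All genes called in that fit numbered 5260, 5094 and 4370. Spp1, the osteopontin gene, rose (0.68, 0.61 and 0.52), and its D-KO call was lost without WT replicate 3 or any 1 of the D-KO libraries. All 3 Spp1 calls were lost with only the 2 genotypes in the fit.

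Of the 16 other transition transcription factors tested, 4 rose and 8 fell in E1-KO cells, 3 rose and 8 fell in E2-KO cells, and 2 rose and 8 fell in D-KO cells, with medians of -0.67, -0.61 and -0.64. Msx1, a homeobox gene of neural crest and limb mesenchyme, fell furthest of the list, from 8.22 ± 2.28 CPM in WT to 0.160 ± 0.144 in E1-KO cells, 0.240 ± 0.0713 in E2-KO cells and 0.633 ± 0.0662 in D-KO cells. Id2, an inhibitor of basic helix-loop-helix factors, fell (-2.91, -2.87 and -2.18), and Sox4 (-1.76, -1.21 and -1.16). The list also holds Id1 and Id3, inhibitors of the same kind, which were called lower in each knockout as well. Foxd3, a factor of pluripotent cells and of neural crest, rose (2.79, 2.43 and 1.67). With WT replicate 2 as the only WT library, 2 of these 16 genes rose in E1-KO and 1 in D-KO.

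Of 15 tested TGF-beta ligands, receptors and effectors, 4 rose and 3 fell in E1-KO cells, 5 rose and 5 fell in E2-KO cells, and 3 rose and 6 fell in D-KO cells. Skil, a repressor of Smad signalling, fell (-2.12, -1.92 and -1.39), and Ltbp3, which stores latent TGF-beta in the matrix, rose (1.69, 1.86 and 1.77). Tgif1, another Smad corepressor, rose (0.70, 0.80 and 0.51), and Ltbp1, a related latency protein, fell (-0.46, -0.85 and -0.85). With only the 2 genotypes in the fit, the Tgif1 call in D-KO was lost. The Ltbp1 call in E1-KO was lost in 12 of 22 alternatives, among them those without WT replicate 3 or E1-KO replicate 2 or 3. Over the 22 alternatives, the TGF-beta genes that rose ranged from 3 to 5, from 4 to 5 and from 1 to 5, and those that fell from 1 to 4, from 3 to 7 and from 3 to 7, in E1-KO, E2-KO and D-KO in turn. All genes called ranged over the same alternatives from 2552 to 8753, from 2535 to 8887 and from 1438 to 7006. Of 15 fibronectin and matrix integrin receptor genes, 2 rose and 3 fell in E1-KO cells, 2 rose and 4 fell in E2-KO cells, and 0 rose and 5 fell in D-KO cells. Itgb1, the beta chain shared by most fibronectin receptors, fell (-0.91, -0.79 and -0.58), Itga4 (-2.37, -1.50 and -1.69), and Itga6, a laminin receptor chain (-0.44, -0.55 and -0.94). With GC and length trends removed, 0 integrin receptor genes rose and 6 fell in E1-KO cells, 0 rose and 6 fell in E2-KO cells, and 0 rose and 7 fell in D-KO cells. In that fit 5260, 5094 and 4370 genes were called in all. Without WT replicate 2, 7 fell in E1-KO cells and 5 rose in E2-KO cells, where 8753 and 8887 genes were called in all. Those that fell in fits to the 2 genotypes alone numbered 2, 2 and 3. Such fits called 2552, 2535 and 1438 genes in all, in E1-KO, E2-KO and D-KO in turn. The Itgb1 call in D-KO and the Itga4 calls in E2-KO and D-KO were lost with WT replicate 2 as the only WT library. The Itga4 call in E2-KO was also lost with GC and length trends removed and the replicate block added. With only the 2 genotypes in the fit, the Itgb1 call in D-KO and the Itga6 calls in E1-KO and E2-KO were lost. The Itga6 call in E1-KO was also lost without any 1 of the E1-KO libraries and with WT replicate 2 alone.

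**Figure D5:**
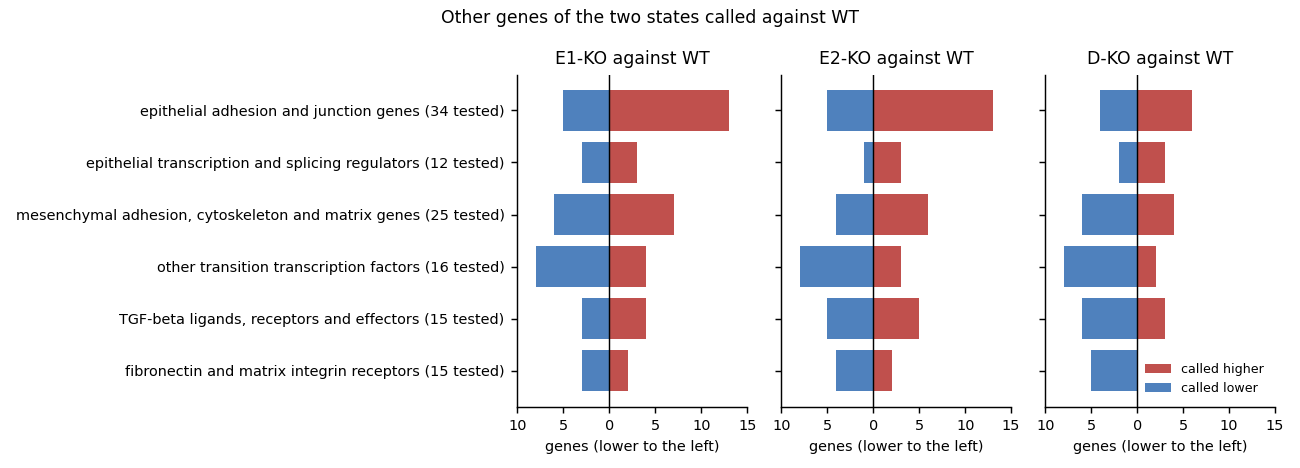
Number of genes called higher (right of 0) and lower (left of 0) against WT in each of 6 lists of related genes, one panel per knockout. Epithelial adhesion and junction genes have 13 higher and 5 lower in both single knockouts. The other transition transcription factors have 8 lower in each knockout, among them the inhibitors Id1, Id2 and Id3.

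The summed levels of cell type markers also differed between genotypes. The summed level of 10 stem cell markers was 2684 to 5065 CPM in WT, 6740 to 7096 in E1-KO cells, 6395 to 6873 in E2-KO cells and 5410 to 5609 in D-KO cells. Tdgf1 had means of 253.5, 221.3, 295.5 and 447.9 CPM in that order, so it was lower in E1-KO than in WT. The other stem cell markers had higher means in E1-KO than in WT. Between WT libraries Dppa5a ranged from 367.1 to 1658 CPM and Pou5f1 from 417.5 to 1146 CPM. The 14 primitive endoderm markers, which include Pdgfra and Sparc of the mesenchymal list, summed to 712.6 to 780.5 CPM in WT, 464.5 to 489.8 in E1-KO cells, 595.2 to 619.9 in E2-KO cells and 571.8 to 596.3 in D-KO cells, with none at 0 in any genotype. Within that list Sparc, a matrix protein gene, had means of 205.5 CPM in WT, 247.8 in E1-KO cells, 262.6 in E2-KO cells and 244.4 in D-KO cells. Gata6 had means of 70.6, 16.2, 36.6 and 46.2 CPM and Cubn of 19.6, 0.806, 3.48 and 7.02 CPM in the same order, so the sum holds genes that differ in opposite directions. E1-KO had the lowest sum of endoderm markers, as it had the lowest Cdh2, Epcam and Vim. Trophectoderm markers, 10 genes that include Tfap2c and, from the epithelial junction list, Krt8 and Krt18, summed to 115.5 to 122.7 CPM in WT, 197.3 to 212.5 in E1-KO cells, 195.4 to 207.5 in E2-KO cells and 109.5 to 118.6 in D-KO cells. Krt8, a keratin gene of simple epithelia, had means of 33.7, 75.3, 81.4 and 39.0 CPM. Gata3 had means of 8.61, 5.35, 5.67 and 4.41 CPM and Eomes of 30.3, 23.7, 25.4 and 17.0 CPM. The trophectoderm sum thus also joins genes that differ in opposite directions. The 10 mesoderm markers summed to 31.1 to 42.4, 29.4 to 34.1, 31.1 to 38.6 and 24.3 to 27.4 CPM in the same order. Eomes and Hand1 stand in both the mesoderm and the trophectoderm list, so these sums are not separate readings. Eomes made up most of the mesoderm sum in every genotype and had a lower mean in each knockout than in WT. Hand1 went the other way, with means of 0.8432 CPM in WT, 1.835 in E1-KO cells, 2.821 in E2-KO cells and 2.097 in D-KO cells. The 8 neural markers summed to 15.6 to 27.1, 13.6 to 20.9, 15.5 to 17.7 and 22.1 to 31.5 CPM in the same order. The neural sum also joins opposite differences: Pax6 had means of 3.89 CPM in WT, 0.254 in E1-KO cells, 0.538 in E2-KO cells and 1.41 in D-KO cells, and Nes of 7.0, 12.1, 8.46 and 15.0 CPM in that order. The 10 fibroblast markers summed to 23.8 to 33.4, 32.2 to 33.7, 26.3 to 30.0 and 18.8 to 20.7 CPM, with 3 of 10 above 1 CPM in each genotype. Msgn1 and Neurog2 were at 0 in all WT libraries. Klf4, Nes, Gsc, Hand1 and Twist2, and Col1a1, Col1a2, Col3a1, Postn, Pdgfrb and Thy1 of the fibroblast markers, also stand both in a marker list and in one of the pathway lists. The part of these cell types in the results for the 10 genes was not tested.

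As a description over the 12 libraries, the genes whose log2 CPM tracked 4 of the members most closely were searched among 12240 genes. For Cdh1 they were Csnk2b and Ak6 (Pearson r = 0.963 each) and Atp6v1d (0.959), for Cdh2 Fhod3 and Tmem45a (0.965 each) and Exosc2 (0.964), for Epcam Tiprl (0.956), Csn3 (0.953) and Tex30 (0.952), and for Vim Ubr7 (0.978), Ogdh (0.975) and Pak1 (0.97). The 12 points fall into 4 genotypes and share library composition, and no member was among the genes most like another.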

How the data were processed

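RNA-seq was run on 12 samples, 3 per genotype, and the authors deposited 1 table of raw read counts per gene and library. Per the submitters' processing notes the tools include HISAT2 2.1.0, HTSeq 0.9.1 and DESeq2 1.18.1 with genome build mm10; gene annotation and strand setting were not given in the sources used here. Rows that name no gene were left out. Reads without a feature numbered 1.11 to 1.20 per counted read. The 4C and ChIP samples were not analysed here.

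The counts were fitted in R 4.3.3 with edgeR 4.0.16 (TMM, low-count filter by genotype, quasi-likelihood F-test, a mean per genotype, 12 libraries in 1 fit), with Benjamini-Hochberg adjustment over all 16765 tested genes and a call at an adjusted p below 0.05. The fit was tested on simulated data with 200 changed genes and the same spread in every genotype. That test therefore cannot show how the fit behaves with the larger spread of WT. CPM are TMM-normalised, and intervals are 95% intervals of the fit. Positions, lengths and GC content come from GENCODE M21 (48108 symbols matched), start-site sequences from RefSeq GRCm38.p6.

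Named genes are all 10 members; per related list, up to 4 genes called in 1 direction in all 3 comparisons with WT, with average log2 CPM of at least 1, by mean absolute change; and for Cdh1, Cdh2, Epcam and Vim the 3 genes of highest Pearson r. The members and lists were chosen with earlier results of these data known. Alternatives were DESeq2 1.42.0, limma 3.58.1 voom with sample weights, other scalings, no low-count filter, GC and length trends removed, a replicate block, 2 genotypes alone, and libraries left out.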

Additional observations from a re-analysis of the deposited data

Results flagged for a closer look

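For 5 of the 10 genes the effect of one deletion differed between cells with and without the other deletion, by the interaction term of the edgeR fit (log2 scale). The interaction was 2.39 for Cdh2 (adjusted p = 0.000425), 1.58 for Vim (adjusted p = 0.000516), 0.85 for Epcam (adjusted p = 0.0022), 4.54 for Zeb2 (adjusted p = 0.00225) and -1.28 for Snai1 (adjusted p = 0.0224). Of all tested genes 35.2% had a called interaction. The Zeb2 value rests on 0 to 10 reads per knockout library. The sum of its single changes would put D-KO at 0.0333 CPM, below what 1 read is worth in a D-KO library. The Snai1 call was lost in 6 of 21 alternatives, among them the edgeR fit with GC and length trends removed (-0.65, adjusted p = 0.077).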

How the results depend on the processing

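Against WT, the calls of Cdh2, Zeb2 (E1-KO and E2-KO), Epcam and Vim (E1-KO) and Snai1 (E2-KO) held in all 22 alternatives. With library totals in place of TMM, the scaling of the knockouts against WT shifted on average by 0.11 (E1-KO), 0.08 (E2-KO) and 0.02 (D-KO) on the log2 scale, and single genes moved by unequal amounts. With WT replicates 1 and 3 left out together, Fn1 turned to 0.15 in E1-KO (adjusted p = 0.00727) and 0.12 in D-KO (adjusted p = 0.025), and Zeb1 to 0.33 in D-KO (adjusted p = 0.0297), and Cdh1 (E2-KO and D-KO) and Snai2 (E1-KO) became called; this fit assumes that the lone WT library varies like the others, and the cause was not tested. In that fit 6238 genes were called in D-KO against WT, and 8030, 6158 and 3457 in D-KO against E1-KO, D-KO against E2-KO and E1-KO against E2-KO, with 2 and 5 members in the last 2 pairs.

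For the same pairs in order, limma voom called 8006, 5877 and 2954 genes, with 3 and 5 members in the last 2. Fits to the 2 genotypes alone, which use fewer samples, called 8025, 5872 and 3377 genes, with 2 and 6 members in the last 2 pairs; against WT they called 2552 (E1-KO), 2535 (E2-KO) and 1438 (D-KO) genes, with 3 members in E2-KO and 1 in D-KO. Between D-KO and E2-KO and between E1-KO and E2-KO, DESeq2 called 1166 and 249 genes, no filter 1472 and 415, GC and length removal 1460 and 306, and the latter with the replicate block 1194 and 205; members were 1 in each pair without a filter or with GC and length removed, and 1 between E1-KO and E2-KO with DESeq2.

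Leaving out 1 library at a time, the members called ranged from 5 to 6 (E1-KO), 3 to 6 (E2-KO) and 2 to 5 (D-KO) against WT, 1 to 4 in D-KO against E1-KO, 0 to 2 in both other pairs and 4 to 5 for the interaction. All genes called ranged, in the same order of comparisons, from 3965 to 8753, 3969 to 8887, 2413 to 7006, 1174 to 4934, 227 to 2875 (D-KO against E2-KO), 16 to 722 (E1-KO against E2-KO) and 4621 to 8673.

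Replicate numbers did not pair the libraries: same-numbered libraries had deviations correlated between -0.078 and 0.082, and 2 of 12 libraries were closest to their own number. The replicate block left the members called at 6, 5 and 4 against WT, 3, 0 and 0 between knockouts and 5 for the interaction, and the genes at 5414, 5582, 3467, 2310, 581, 71 and 5609. Reads limit Zeb2 and Snai2 most, at 0 to 39 per library.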
